A study of Rattus norvegicus with 4 samples.

Results

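Pairs of JUN peaks are described here: groups of exactly 2 JUN-bound intervals at most 12.5 kb apart, with no further one within 12.5 kb. JUN chromatin immunoprecipitation with sequencing (ChIP-seq) was performed on rat sciatic nerve after transection, and the authors deposited 1 peak list for the series. Peaks on chromosomes 1 to 20 of the rn5 build were sorted, and neighbours were joined when the gap between the end of a peak and the start of the next was at most 12.5 kb, a distance commonly used to stitch enhancer elements. Of 16907 peaks on these chromosomes, 3404 (20.1%) fell into groups of exactly 2, giving 1702 pairs. The whole list held 17017 peaks, of which 107 on X and 3 on unplaced contigs were outside the rule. Groups of 3 or more numbered 1625 and held 7918 peaks, and 5585 peaks stood alone.

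ChIP DNA for JUN (2 libraries) and input DNA (2 libraries) came from male Sprague Dawley rats. In all of them the nerve had been cut, and the tissue distal to the cut was taken 8 days later. The characteristics of the samples give stage P28, while the treatment note calls the animals adult. The antibody was used at 4 µg in an MNase-based protocol, in which a nuclease cuts chromatin between nucleosomes. No uninjured nerve was among the samples analysed here, and the distal stump holds Schwann cells together with macrophages, fibroblasts and endothelial cells, so the list does not assign a pair to a cell type.

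JUN is a basic leucine zipper protein that binds DNA as a dimer, with itself or with FOS or ATF family partners, as the transcription factor AP-1. After nerve injury it is induced in Schwann cells and drives their conversion into repair cells, which clear myelin and support regrowing axons. AP-1 sites lie at promoters and more often at distal enhancers, where an enhancer may hold one bound site or several in a row.

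Each interval in the list was 300 bp wide and carried no height, score, gene or value per library. Depth was therefore unknown, and no error between replicates could be given. Intervals in parentheses below are exact 95% intervals, of a median by order statistics or of a share by the Clopper-Pearson method. They cover counting error within this list only and treat groups as independent, which neighbouring groups are not. For gaps inside groups of 3 or more, each of the 6293 gaps counts as independent, though only 1625 groups hold them. Those intervals may therefore be too narrow. The pairs were chosen by the positions of the peaks, and every measure below comes from those same positions. The values are therefore descriptions, and no test was made. No sequence or gene of the rn5 build was used, so bound motifs, genes and exons or introns at the pairs were not analysed here.

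The peaks of a pair were mostly close together. The gap inside pairs had a median of 1218 bp (1071 to 1345, n = 1702), with quartiles of 448 and 4919 bp. The shortest gap was 74 bp, and the longest was exactly the joining distance of 12.5 kb. Pairs as a whole, from the start of the first peak to the end of the second, had a median length of 1.82 kb. Groups of 3 or more had a median length of 10.1 kb.

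Short gaps were the most frequent. Gaps under 1 kb made up 45.9% of pairs (43.6 to 48.3%), and gaps under 0.5 kb made up 28.3% (26.2 to 30.5%). In bins of 100 bp, the fullest bin was 300 to 400 bp with 145 pairs, next to 130 pairs at 200 to 300 bp and 121 at 400 to 500 bp. Since each peak is 300 bp wide, a gap of 300 to 400 bp corresponds to centres 600 to 700 bp apart. Below 200 bp there were 86 pairs (5.05%), and below 100 bp there were 7, so few pairs consisted of intervals in near contact. This was not particular to pairs. In groups of 3 or more, 4.24% of gaps were under 200 bp and the smallest was 73 bp. Whether peak calling set this lower limit was not tested.

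Beyond this maximum, the frequency fell and then levelled off. The number of pairs per 100 bp was 145 at 300 to 400 bp, 37 at 1000 to 1100 bp and 10.3 on average from 2 to 3 kb. It was 7.0 from 5 to 6 kb and 5.0 from 11 to 12 kb, so the slope was shallow out to the joining distance. Pairs with gaps of 5 kb or more numbered 422, or 24.8% (22.8 to 26.9%). The joining distance thus cut through a shallow tail and not through an empty stretch between close and distant pairs.

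**Figure D1:**
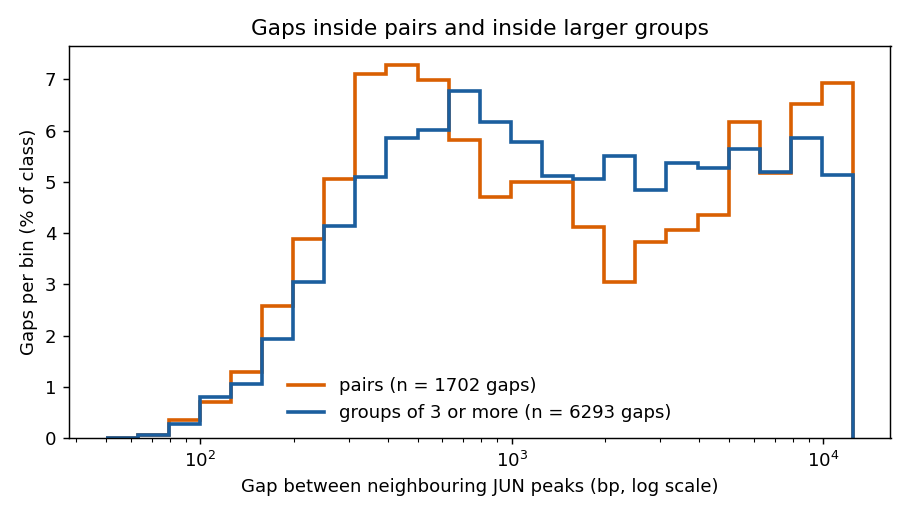
The x axis gives the gap between neighbouring JUN peaks in bp on a log scale, and the y axis the share of gaps per bin of equal log width, for 1702 gaps in pairs and 6293 gaps in groups of 3 or more. Pairs show more gaps under 0.5 kb than groups of 3 or more together (28.3% against 22.3%). Between 2 and 5 kb they show fewer (15.2% against 20.9%). By size, groups of 3, of 4 and of 5 or more had 18.8, 15.4 and 23.2% there.

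Gaps inside larger groups had a similar overall scale and a different shape. Their median was 1429 bp (1352 to 1518, n = 6293), with quartiles of 557 and 4357 bp. Their middle range together was thus narrower than that of pairs. This did not hold for groups of 4 alone, with quartiles of 520 and 5250 bp. In groups of 5 or more the quartiles were 580 and 4012 bp. Gaps under 0.5 kb made up 22.3% (21.3 to 23.4%) in groups of 3 or more, below the 28.3% of pairs. Gaps of 2 to 5 kb made up 20.9% (19.9 to 21.9%), above the 15.2% of pairs. By size, this share was 18.8% in groups of 3, 15.4% in groups of 4 (13.3 to 17.7%) and 23.2% in groups of 5 or more. Groups of 4 were thus near pairs, and the excess was largest in groups of 5 or more. At the long end, gaps of 5 kb or more made up 21.7% (20.7 to 22.8%) in larger groups and 24.8% in pairs. This share was 23.7% in groups of 3, 26.4% in groups of 4 and 19.7% in groups of 5 or more. The fullest 100 bp bin was the same one in both, 300 to 400 bp.

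The order of the medians depended on how the groups were formed. Pairs had the shorter median gap at the joining distance used (ratio 0.852) and at 5 kb (0.754). At 25 kb the ratio was 1.07, with overlapping intervals of 1794 to 3007 bp for pairs and 2091 to 2349 bp for larger groups. It was 1.14 after peaks closer than 500 bp had been joined into 1, where the intervals also overlapped (2367 to 2974 and 2231 to 2448 bp). After peaks closer than 1 kb had been joined it was 1.23, with intervals of 3999 to 4689 and 3402 to 3706 bp. Joining close peaks removes the short gaps by its construction. Which class had the shorter median gap thus depended on the grouping, and the order was not resolved at 25 kb. Whether the shares of gap classes change in the same way was not tested.

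By group size, the median gap was 1326 bp in groups of 3 (1161 to 1503), 1358 bp in groups of 4 (1225 to 1590) and 1482 bp in groups of 5 or more (1392 to 1581). The interval of pairs overlapped those of groups of 3 and of 4, and lay below that of groups of 5 or more. The share of gaps under 0.5 kb was 23.8% in groups of 3, 24.0% in groups of 4 and 21.3% in groups of 5 or more. Within groups of 3, the shorter of the 2 gaps had a median of 622 bp and the longer one of 3771 bp. The median pair lay between these values, which follows from splitting gaps of a similar median into shorter and longer ones. In groups of 4 or more, the first and last gaps had a median of 1560 bp (1394 to 1684) and inner gaps of 1410 bp (1309 to 1528).

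The closest pair lay on chromosome 5 from 4422573 to 4423246, with a gap of 74 bp and centres 374 bp apart. The next closest was on chromosome 17 from 7202056 to 7202742, with a gap of 87 bp. A gap of 93 bp separated the peaks of a pair at 31944558 to 31945250 of chromosome 7, and the same gap was seen at 6434128 to 6434820 of chromosome 18. The fifth, with a gap of 94 bp, lay on chromosome 9 from 87858933 to 87859626. These 5 pairs stood in sparse surroundings. The pair on chromosome 5 had no other peak within 500 kb, and the other 4 had 5, 2, 2 and 2 such peaks, against a median of 12 over all pairs. The 482 pairs with gaps under 0.5 kb had a median of 11, so close pairs in general were near the value of all pairs.

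At the joining distance itself, the widest pair lay on chromosome 1 from 281342288 to 281355387, with a gap exactly at the limit. It was followed by gaps of 12485 bp on chromosome 6, 12459 bp on chromosome 8, 12453 bp on chromosome 2 and 12363 bp on chromosome 7. The closest neighbours left unjoined had gaps of 12503 bp on chromosomes 7 and 20, 12524 bp on chromosome 16, 12542 bp on chromosome 10 and 12546 bp on chromosome 2. The 12524 bp gap on chromosome 16 separated 1 pair from another, so a slightly longer limit would have made them a group of 4. A few bp thus decided whether such peaks counted as a pair.

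The next group is always farther away than the partner peak, since the rule joins peaks up to 12.5 kb apart. A neighbouring group is the closest single peak, pair or larger group on either side, and by the rule it cannot be nearer than the joining distance. The nearer neighbouring group lay at a median of 36.3 kb (34.0 to 39.0, n = 1702), with quartiles of 19.97 and 80.01 kb. The farther one lay at a median of 145 kb (134 to 157, n = 1694). The 8 pairs that were the first or last group of their chromosome had a neighbour on 1 side only and no farther value. The farther distance was 2.71 times the nearer at the median, against 3.05 times for single peaks and 2.62 times for groups of 3 or more. The ratio sets the larger distance over the smaller by its construction. A place to one side of the free stretch was thus not particular to pairs.

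**Figure D2:**
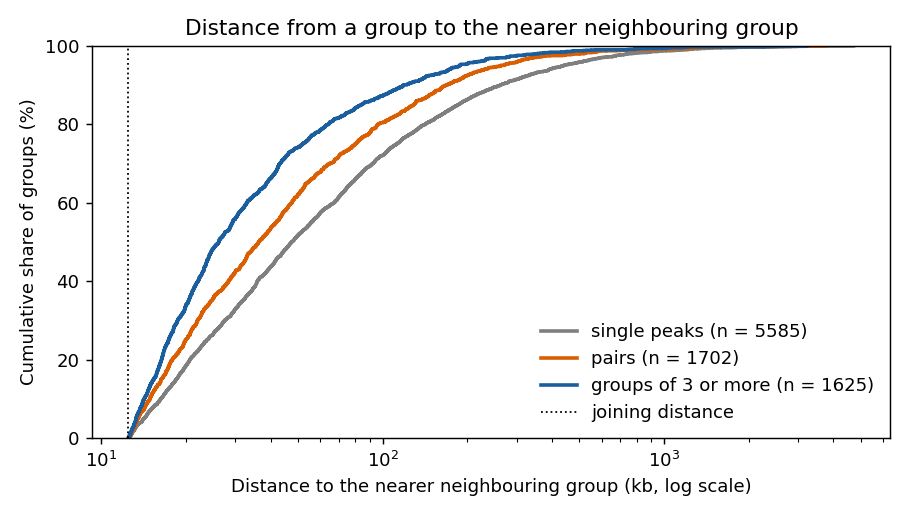
The x axis gives the distance to the nearer neighbouring group in kb on a log scale, and the y axis the cumulative share of groups, for single peaks, pairs and groups of 3 or more; the dotted line marks the joining distance. The curve of pairs lies between the others, with medians of 47.5 kb for single peaks, 36.3 kb for pairs and 26.2 kb for groups of 3 or more.

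Pairs took a middle place between single peaks and larger groups. The median distance to the nearer group was 47.5 kb for single peaks (45.8 to 49.4), 29.3 kb for groups of 3 (26.5 to 32.3), 25.2 kb for groups of 4 (23.3 to 28.9) and 24.1 kb for groups of 5 or more (23.1 to 26.2). For groups of 3 or more together it was 26.2 kb (24.6 to 27.5), so the median of pairs was 1.39 times theirs. This ratio was between 1.25 and 1.45 under the other joining distances, with close peaks joined first and with X added. The farther group lay at 199 kb for single peaks and 100 kb for groups of 3 or more.

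The shares at both extremes of isolation had the same order, though the order was not resolved at the largest distances. A nearer group within 25 kb was found for 606 pairs, or 35.6% (33.3 to 37.9%), against 26.5% of single peaks and 48.2% of groups of 3 or more. Both neighbours lay within 25 kb for 93 pairs, or 5.46%, against 3.03% and 8.74%. The nearer group was more than 100 kb away for 333 pairs, or 19.6% (17.7 to 21.5%), against 27.9% of single peaks and 12.7% of groups of 3 or more. Beyond 500 kb there were 34 pairs (2.00%), against 4.15% of single peaks and 1.23% of groups of 3 or more. The intervals of pairs (1.39 to 2.78%) and of larger groups (0.75 to 1.89%) overlapped there. Beyond 1 Mb there were 14 pairs (0.82%, 0.45 to 1.38%), against 1.25% (0.98 to 1.58%) and 0.62% (0.30 to 1.13%). These intervals all overlapped.

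The most isolated pair lay on chromosome 19 from 5824896 to 5826128, with a gap of 633 bp. Its neighbours were a single peak 3922 kb upstream and a group of 3 peaks 3747 kb downstream, so the 2 peaks stood alone in a stretch of several Mb. A pair on chromosome 18 from 12008124 to 12009038 had a gap of 315 bp and was 3884 and 2982 kb from single peaks on either side. On chromosome 14, a pair from 91688448 to 91699844 had a gap of 10797 bp and neighbours at 2576 and 2372 kb. The other 2 of the 5 most isolated pairs were at 13418597 to 13422672 of chromosome 4, with a gap of 3476 bp, and at 64990931 to 64997556 of chromosome 18, with a gap of 6026 bp. Their gaps ran from 315 to 10797 bp, so both close and wide pairs were among the most isolated.

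**Figure D3:**
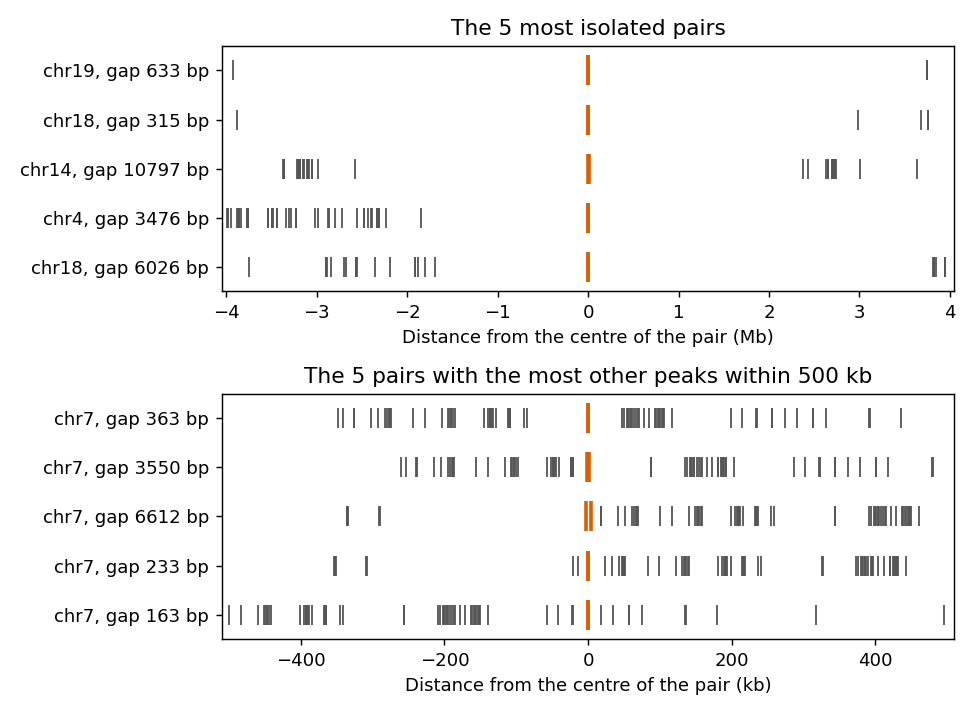
Each row shows the JUN peaks around 1 pair by distance from its centre, in Mb for the 5 most isolated pairs (upper panel) and in kb for the 5 pairs with the most other peaks within 500 kb (lower panel); orange ticks are the pair, which merge at this scale where the gap is small, and grey ticks are other peaks. The isolated pairs have no other peak within 1 Mb, whereas the dense ones have 62 to 72 within 500 kb.

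Local density was counted as the other peaks that started within 500 kb of either edge of a group, leaving out the group's own. Pairs had a median of 12 other peaks (12 to 13), with quartiles of 6 and 20 and a highest value of 72. Single peaks had a median of 10 (10 to 11), groups of 3 of 14 (13 to 15), groups of 4 of 15 (13 to 16) and groups of 5 or more of 17 (16 to 18). Groups of 3 or more together had a median of 15 (15 to 16). Pairs were in sparser surroundings than larger groups by 3 peaks at the median, while the middle range of pairs from 6 to 20 overlapped that of larger groups from 9 to 23. With flanks of 100 kb the medians were 3 and 4, and with flanks of 1 Mb they were 22 and 25.

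The difference in density was concentrated near the groups. Between 12.5 and 25 kb from the edge, other peaks occurred at 26.7 per Mb around pairs, 40.2 around groups of 3 or more and 18.6 around single peaks. From 100 to 150 kb the values were 16.4, 20.5 and 14.5 per Mb. From 500 to 750 kb they were 11.3, 11.4 and 10.1 per Mb. At that distance the surroundings of pairs and of larger groups had nearly the same density, and the larger excess around bigger groups was seen nearer to the groups. Chromosome ends were not corrected for, and overlapping surroundings share peaks.

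**Figure D4:**
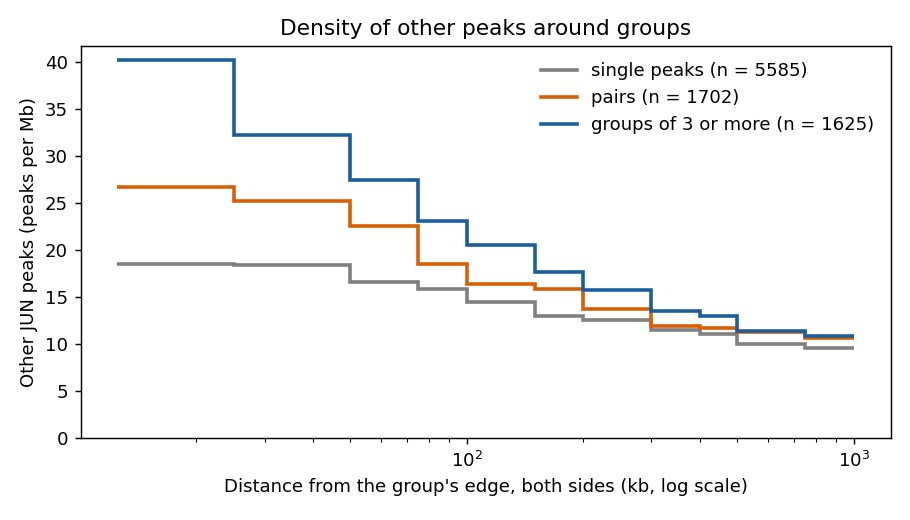
The x axis gives the distance from the edge of a group on both sides in kb on a log scale, and the y axis the number of other JUN peaks per Mb, averaged over 5585 single peaks, 1702 pairs and 1625 groups of 3 or more. Around pairs the density goes from 26.7 per Mb at 12.5 to 25 kb to 11.3 per Mb at 500 to 750 kb, where it meets the value of larger groups.

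The 5 pairs with the densest surroundings were all in 1 region of chromosome 7 and share most of their neighbours. The pair from 120337528 to 120338490, with a gap of 363 bp, had 72 other peaks within 500 kb, and its downstream neighbour at 46.5 kb was a group of 23 peaks. The pair from 120248477 to 120252626, with a gap of 3550 bp, had 71 such peaks. A pair from 119990324 to 119997535 and another from 120011348 to 120012180 were each other's neighbours at 13.8 kb, with gaps of 6612 and 233 bp and 63 other peaks each. The fifth lay from 120593839 to 120594601, with a gap of 163 bp and 62 other peaks.

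Pairs were present at every density. Among groups without another peak within 500 kb, 34 of 286 were pairs, or 11.9% (8.38 to 16.2%). The share of pairs was 16.7% (14.8 to 18.7%) where 1 to 4 other peaks lay within 500 kb, 19.1% with 5 to 9, 20.05% with 10 to 19, 20.7% with 20 to 29 and 19.8% (17.2 to 22.7%) with 30 or more. It thus levelled off near 20%. Over the same classes, the share of groups of 3 or more went from 6.99% through 9.44, 14.4, 20.5 and 24.4% to 27.7%. Its intervals at 20 to 29 other peaks (22.3 to 26.7%) and at 30 or more (24.7 to 30.9%) overlapped, so the last step was not resolved. The share of single peaks went from 81.1% down to 52.5%.

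The gap inside a pair was only loosely tied to its surroundings. Over the 1702 pairs, Spearman's rho was -0.07 between the gap and the distance to the nearer group, and 0.07 between the gap and the number of other peaks within 500 kb. These correlations are descriptions across pairs of 1 list, which share regions. Pairs with gaps under 0.5 kb had their nearer group at a median of 39.9 kb (35.4 to 45.7) and 11 other peaks within 500 kb (9 to 12). Those with gaps of 0.5 to 1 kb had 39.1 kb (32.4 to 43.6) and 12 other peaks (11 to 13). At 1 to 2 kb the values were 32.5 kb (27.5 to 42.1) and 13 other peaks (12 to 16). Pairs with gaps of 2 to 5 kb had 30.1 kb (26.7 to 35.9) and 14 other peaks (13 to 16). Pairs with gaps of 5 kb or more had 36.7 kb (32.8 to 40.3) and 13 other peaks (12 to 14). Up to 5 kb the median distance thus fell and the median density rose from class to class, and the widest class broke this order.

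The groups next to pairs were of all kinds. Of 3396 neighbours of pairs on either side, 2052 were single peaks (60.4%), 672 were other pairs (19.8%) and 672 were groups of 3 or more (19.8%). Among the neighbours of all groups, these shares were 62.7, 19.1 and 18.3%. Next to groups of 3 or more, 55.4% of neighbours were single peaks, 20.7% were pairs and 23.9% were groups of 3 or more. Pairs were thus found next to other pairs at about the share that pairs hold among all neighbours.

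Not all pairs were equally clear cut. With a joining distance of 5 kb, 1280 of the 1702 pairs (75.2%) were still pairs and 422 split into single peaks. With 25 kb, 1096 (64.4%) were still pairs, 210 became part of a group of 3 and 396 part of a larger group. A core of 827 pairs (48.6%, 46.2 to 51.0%) was a pair at 5, 12.5 and 25 kb alike. These have a gap of at most 5 kb and no other peak within 25 kb. Conversely, 670 of the 1950 pairs found at 5 kb (34.4%) were pieces of larger groups at 12.5 kb.

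Pairs occurred on all of chromosomes 1 to 20. Their number ran from 38 on chromosome 11 to 224 on chromosome 1, with a median of 73 per chromosome. Per Mb up to the last peak, chromosome 10 had the most pairs, 1.21, and chromosome 4 the fewest, 0.343. Peaks of all classes numbered 11.5 per Mb on chromosome 10 and 3.87 on chromosome 4. Over the 20 chromosomes, Spearman's rho between pairs per Mb and peaks per Mb, of which pairs are a part, was 0.92. The number of pairs per Mb thus largely followed that of all peaks. As a share of peaks, chromosome 5 stood highest, with 25.4% of its 1016 peaks in 129 pairs, and chromosome 13 lowest, with 15.5% of its 619 peaks in 48 pairs.

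As a share of all groups, single peaks included, pairs made up 23.2% on chromosome 5 (19.8 to 27.0%) and 15.2% on chromosome 11 (10.99 to 20.3%), against 19.1% on the 20 chromosomes together. The interval of chromosome 5 lay above this value, but it was picked as the highest of 20. The median gap ran from 786 bp on chromosome 2 (598 to 1255) to 2603 bp on chromosome 12 (840 to 4872). These intervals overlapped. The median distance to the nearer group ran from 28.5 kb on chromosome 10 to 44.1 kb on chromosome 13.

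**Figure D5:**
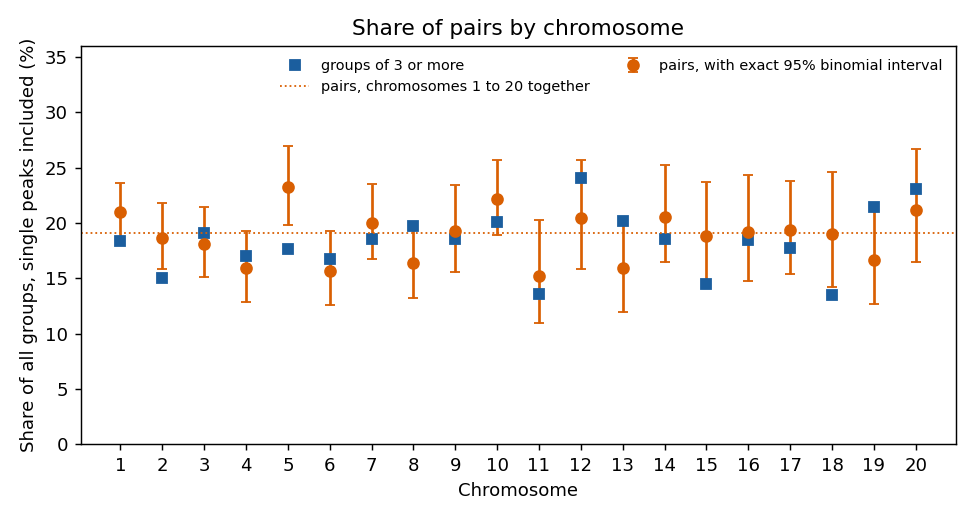
The x axis gives the chromosome and the y axis the share of all groups, single peaks included, that were pairs (circles, with exact 95% binomial intervals) or groups of 3 or more (squares); the dotted line is the share of pairs over chromosomes 1 to 20. Shares of pairs range from 15.2% on chromosome 11 to 23.2% on chromosome 5, around 19.1%.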

How the data were processed

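The labels list 2 JUN ChIP and 2 input libraries, and 1 peak list stands for the whole series. Its positions (chromosome, start and end in bp, unit: other) were used as deposited. The submitters' processing notes name rn5 as the build and list MACS2, Bowtie2, deepTools, bedtools and CASAVA 1.8.2. The settings, peak threshold and treatment of replicates are not given in the sources at hand. How replicates were combined can change which peaks are listed, and a peak missing from the list can turn a group of 3 into a pair.

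Starts were taken as 0-based and are printed 1-based. Gaps were next start minus previous end. Grouping code was tested on simulated data with planted groups. Pairs are named by rule: the 5 with the smallest gap, the largest gap, the farthest nearer group and the most other peaks within 500 kb. The members and measures were chosen with earlier results of these data known. The gene table at hand is of another assembly and was not used. Computation used SciPy 1.17.1, pandas 2.3.3 and NumPy 2.4.6 in Python 3.11.15, with plots by matplotlib 3.10.9.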

Additional observations from a re-analysis of the deposited data

How the results depend on the processing

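The number of pairs stayed within 1.5 times of 1702 in all 5 alternatives, from 1398 to 1950. The share of peaks in pairs was 23.1% with a joining distance of 5 kb, 16.5% with 25 kb and 21.1% after peaks closer than 1 kb were joined first. The median gap in pairs was 719 bp at 5 kb, 2385 bp at 25 kb, and 2660 and 4352 bp when peaks less than 500 bp or less than 1 kb apart were first joined. In groups of 3 or more it was 953, 2221, 2344 and 3532 bp in the same settings. The median distance to the nearer group was 19490, 58846, 33712 and 31734 bp for pairs and 13407, 47178, 24435 and 24103 bp for larger groups. The median number of other peaks within 500 kb was 14 at 5 kb, 10 at 25 kb and 11 after the 1 kb join for pairs, and 18, 13 and 13 for larger groups, with 14 after the 500 bp join. Flanks of 100 kb and 1 Mb gave 3 and 22 for pairs and 4 and 25 for larger groups. These settings change the lengths joined or counted by their construction. Of the 44 values computed, 14 stayed within 1.5 times for a count or within the interval of the main value, among them all those with X added. Pairs had the longer distance to the nearer group and the lower density in every setting computed. No paired analysis was possible because no values per library were at hand, and no replicate was left out for that reason. A stricter peak threshold was not run, as the list has no score. Depth was unknown, so a stretch without a peak is one where none was listed.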

Other observations

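Pairs also occurred in uninterrupted series along a chromosome. Of the 1702 pairs, 1099 had no other pair as a direct neighbour group, and 438 stood in 219 runs of 2 pairs in a row. There were 33 runs of 3, 10 runs of 4 and 4 runs of 5. Other pairs made up 19.8% of the neighbours of pairs, near the 19.1% that pairs made up among the neighbours of all groups. Whether runs were more frequent than in a random order of groups was not tested. The longest run had 6 pairs and lay on chromosome 14 from 84024748 to 84495095, over 470 kb with no single peak and no larger group between them. This run was singled out after its values were seen.

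X was outside the rule. Its 107 peaks formed 59 groups, of which 5 were pairs and 8 were groups of 3 or more. The median gap of the 5 pairs on X was 1102 bp.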
